A study of Mus musculus with 3 samples.

Results

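The 10 genes described here mark radial glia and neural progenitors of the embryonic spinal cord: the SoxB genes Sox1, Sox2, Sox3 and Sox21, the filament genes Nes and Vim, the RNA-binding protein gene Msi1, and the membrane protein genes Prom1, Ednrb and Ptprz1. They were chosen by symbol, with earlier results of these data known, from the 51826 genes of the deposited gene table, and all 10 were found. All 10 also had at least 20 counts in at least 1 library, as did 18074 genes in all, called measured here.

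Spinal cords of C57BL/6 mouse embryos at embryonic day 13.5 were profiled by RNA sequencing, with 1 library for each of 3 genotypes. The first was wild type (WT), for which the labels list neither a Cre nor a floxed allele. The second, dE3, had the genotype Nestin-Cre;Ctnnb1-floxed(Ex3), a deletion of exon 3 that the labels call gain of function. The last, cKO, had the genotype Nestin-Cre;Ctnnb1-floxed(Ex2-6), a deletion of exons 2 to 6 that they call loss of function. Ctnnb1 encodes β-catenin, the effector of canonical Wnt signalling and a partner of cadherins. Nestin-Cre is driven by regulatory sequence of Nestin, so it acts mainly in neural progenitors and their descendants, and which cells of these cords recombined was not measured. The number of embryos behind each library is not in the labels. They tag the WT and dE3 libraries L2 and the cKO library L3, so that tag and the cKO genotype cannot be told apart.

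Radial glia line the ventricle of the neural tube, divide there, and give rise first to neurons and later to glia. SoxB1 proteins (Sox1, Sox2 and Sox3) hold cells in the progenitor state and overlap in function, whereas Sox21, of the related SoxB2 group, counteracts them and favours differentiation. Nestin and vimentin build the intermediate filaments of radial fibres, Musashi-1 controls translation in progenitors, and prominin-1 sits on the apical membrane.

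Library totals were 32167470 estimated counts for WT, 34790053 for dE3 and 33048837 for cKO. Levels are given as CPM, counts scaled to a common library size with TMM factors, and each ratio of CPM carries an exact 95% interval for counting error. Genes are called higher or lower where the ratio was at least 2 in either direction and the interval excluded 1. With 1 library per genotype there is no replicate check, no p-value can be given, and each value compares libraries rather than genotypes. The targeted gene Ctnnb1 stood at 544 CPM (WT), 461 (dE3) and 422 (cKO), a total that also counts exons outside the deletions. All 5 Wnt readout genes examined (Axin2, Lef1, Nkd1, Sp5 and Notum) were called higher in dE3. Axin2 stood at 41.3, 276 and 35.8 CPM in WT, dE3 and cKO. In cKO, only Notum was called, and it was higher than in WT (58, 4600 and 124 counts in WT, dE3 and cKO). The cKO to WT ratios were 2.07 for Notum, 1.86 for Sp5, 1.44 for Lef1, 0.994 for Nkd1 and 0.866 for Axin2. The Notum call in cKO is lost without its most different transcript, at a log2 ratio of -0.168. All 10 pan-neuronal markers were measured, with summed levels of 8194, 7428 and 7954 CPM. Markers of tissues around the cord differed between the libraries. All 10 skeletal muscle markers and all 5 cartilage markers were called higher in dE3 than in WT, with sums of 15.1 CPM (WT), 192 (dE3) and 49.9 (cKO) for muscle and 109, 713 and 341 for cartilage. In cKO, 8 of the 10 muscle markers and all 5 cartilage markers were also called higher than in WT. Mesenchyme and meninges markers summed to 732, 1400 and 1630 CPM, with 6 of 12 called higher in dE3 and 4 of 12 in cKO. Of 8 endothelial, 6 microglial and 6 sensory ganglion markers, 0 were called in dE3, while 5 of 6 epidermal markers were higher there, summing to 6.32, 19.0 and 6.57 CPM. The part of these tissues in the results below was not tested.

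The genes divided into one set that was lower in dE3 and one that was not, and the sequences ahead of their start sites are shown for members of each set. Sox21, Ednrb and Ptprz1 belong to the first set, Sox2 and Nes to the second. Each window lies upstream of a RefSeq start and outside the exons of GENCODE vM21, and is written 5′ to 3′ on the gene's strand from GRCm38.p6. Capitals mark a match to the motifs described after the sequences. The RefSeq start of Sox2 (34649995) lies upstream of the start of its only transcript in the deposited table (34650405). The windows lie at chr14:118237031-118237150 (minus strand) for Sox21, chr14:103843702-103843951 (minus) for Ednrb, chr6:22875252-22875501 (plus) for Ptprz1, chr3:34649745-34649994 (plus) for Sox2 and chr3:87970843-87971077 (plus) for Nes.
Sox21: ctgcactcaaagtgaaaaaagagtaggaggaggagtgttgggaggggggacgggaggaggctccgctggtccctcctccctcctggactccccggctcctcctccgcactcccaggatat
Ednrb: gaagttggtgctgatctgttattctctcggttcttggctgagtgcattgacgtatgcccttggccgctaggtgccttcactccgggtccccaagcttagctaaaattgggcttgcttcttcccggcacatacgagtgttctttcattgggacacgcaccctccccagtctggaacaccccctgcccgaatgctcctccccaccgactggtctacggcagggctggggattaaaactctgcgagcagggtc
Ptprz1: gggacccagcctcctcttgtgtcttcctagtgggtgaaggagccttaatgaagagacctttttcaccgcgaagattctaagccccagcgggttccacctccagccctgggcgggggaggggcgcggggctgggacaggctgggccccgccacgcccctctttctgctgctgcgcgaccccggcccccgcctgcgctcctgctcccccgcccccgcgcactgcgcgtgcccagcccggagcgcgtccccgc
Sox2: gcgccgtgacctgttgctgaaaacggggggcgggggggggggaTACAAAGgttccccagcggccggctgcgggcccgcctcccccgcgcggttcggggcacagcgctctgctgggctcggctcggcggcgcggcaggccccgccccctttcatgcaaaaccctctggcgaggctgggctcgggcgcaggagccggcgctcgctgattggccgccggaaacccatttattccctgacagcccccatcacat
Nes: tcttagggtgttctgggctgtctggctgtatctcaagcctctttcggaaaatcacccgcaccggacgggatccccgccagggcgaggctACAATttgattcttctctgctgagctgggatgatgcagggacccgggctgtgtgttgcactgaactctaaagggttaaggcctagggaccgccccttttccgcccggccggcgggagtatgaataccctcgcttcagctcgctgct
RefSeq promoter windows of 300 bases (250 before the start and 50 after it) were found for 8 of the 10 genes, with 9 windows since Prom1 has 2 starts. Sox3 and Msi1 had no entry. Some windows overlap annotated exons. Of the 250 upstream bases, 250 lay in exons for Vim and for the Prom1 start at 44101736. For Sox1 it was 224, for Sox21 130 and for Nes 15. The RefSeq start of Vim (13574311) lies downstream of the start of its leading transcript in the deposited table (13573952). A TCF/LEF core was searched on both strands in the form CTTTGAA, in its variant CTTTGAT, and in a further variant, CTTTGTT. Any of these occurred in 0 of the 9 windows and in 13.9% of 32851 promoters of the same length. The remaining form CTTTGTA, added after the data were seen, occurred in the Sox2 window at position -207, on the opposite strand, and in none of the other 8, against 3.63% of all promoters. With that form included, 16.9% of all promoters hold a core. The SOX core ACAAT, also searched on both strands, occurred in the Nes window at position -161 and in none of the other 8, against 31.0% of all promoters. CTTTGTT can also be read as a SOX core, so these motifs overlap in kind.

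In the dE3 library, 5 of the 10 genes were called lower than in WT and 0 were called higher. The 5 were Sox1, Sox3, Sox21, Ednrb and Ptprz1. Over all measured genes, 3.78% were called lower and 6.52% higher in this comparison, 10.3% in all. Each member had at least 100 counts in at least 1 library, and among the 13967 genes that did, 1.76% were lower and 4.55% higher. Because the 10 genes were chosen with earlier results of these data known, these shares give scale and are no test. The members' median log2 ratio was -0.51, against 0.00 over all measured genes. The other 5 genes (Sox2, Nes, Vim, Msi1 and Prom1) had ratios from 1.04 to 1.72. In bulk tissue, fewer cells of a type and less RNA per cell cannot be told apart.

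**Figure D1:**
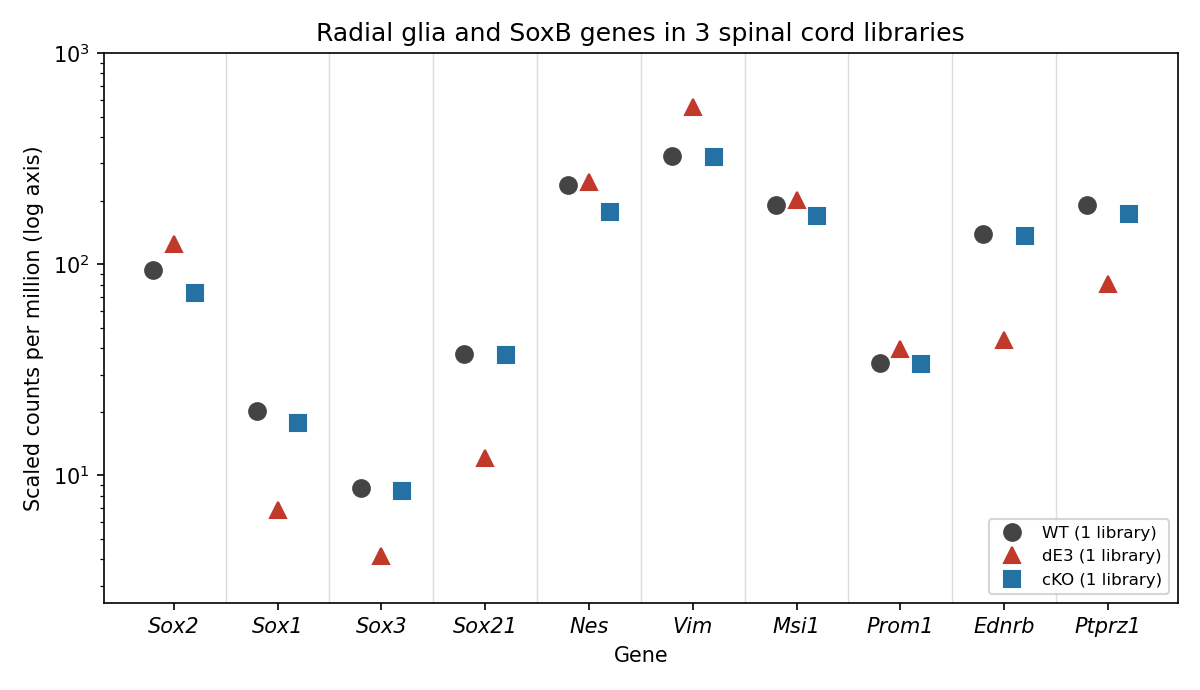
Level of each of the 10 genes (CPM after TMM scaling, log axis) in the WT, dE3 and cKO libraries, 1 point per library. The dE3 triangles of Sox1, Sox3, Sox21, Ednrb and Ptprz1 lie below the WT and cKO points, whereas those of Sox2 and Vim lie above them.

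Within the SoxB1 group the paralogs parted. Sox2 (ENSMUSG00000074637, chromosome 3, 34650405 to 34652461, plus strand, GRCm38), the pluripotency and neural progenitor factor, had 3009 (WT), 4387 (dE3) and 2423 (cKO) counts, or 94.2, 125 and 73.4 CPM. Its dE3 to WT ratio of 1.33 (1.27 to 1.39) excluded 1 but stayed under 2-fold. It was the SoxB gene with the most counts in every library. Sox1 (ENSMUSG00000096014, chromosome 8, 12395295 to 12400126, plus strand), the SoxB1 gene most restricted to the neural plate and tube, had 647, 241 and 587 counts, or 20.3, 6.88 and 17.8 CPM. It was 2.94-fold lower in dE3 than in WT (2.54 to 3.43). Sox3 (ENSMUSG00000045179, chromosome X, 60891366 to 60893430, minus strand), an X-linked progenitor factor, had 280, 145 and 279 counts, or 8.76, 4.14 and 8.45 CPM. It was 2.12-fold lower in dE3 (1.73 to 2.61), an interval that reaches below the 2-fold threshold. For both, the dE3 library was the low one, while WT and cKO lay close together.

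Sox21 (ENSMUSG00000061517, chromosome 14, 118233232 to 118237030, minus strand), the SoxB2 gene that opposes SoxB1 factors, had 1206, 426 and 1223 counts in that order, or 37.7, 12.2 and 37.0 CPM. It was 3.11-fold lower in dE3 (2.78 to 3.48), and WT and cKO did not differ beyond counting error. The 4 SoxB genes have 1 transcript each in the table, so no choice of isoform enters their values. On the opposite strand, Gm4675 shares 713 of the 3799 exonic bases of Sox21 (18.8%), and whether counting used strand is not given in the sources used here. Gm4675 held 26, 30 and 18 counts, and the part of this overlap in the Sox21 values was not tested. The host transcript Sox1ot, which shares 0 exonic bases with Sox1, had 206, 68 and 165 counts, with a dE3 to WT ratio of 0.301 (0.225 to 0.398). Its counterpart Sox2ot had 481, 398 and 424 counts and a ratio of 0.754 (0.659 to 0.863).

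The balance of SoxB counts therefore differed in dE3. Sox2 made up 76.4% (95% exact binomial interval 75.1 to 77.8) of the summed SoxB1 counts of the WT library, 91.9% (91.1 to 92.7) of those of dE3 and 73.7% (72.1 to 75.2) of those of cKO. Sox1 made up 16.4% (15.3 to 17.6), 5.05% (4.45 to 5.71) and 17.8% (16.6 to 19.2). The Sox2 to Sox1 count ratio within a library was 4.65 (4.27 to 5.07) for WT, 18.2 (16.0 to 20.8) for dE3 and 4.13 (3.77 to 4.53) for cKO. These ratios within a library do not depend on scaling. Counts also reflect transcript length, 2057 bases for Sox2 and 4832 for Sox1. Per length, as TPM, the Sox2 to Sox1 ratio was 10.9, 42.8 and 9.71 in WT, dE3 and cKO. Sox1 then made up 7.72%, 2.21% and 8.46% of SoxB1. The summed SoxB1 level was 123, 136 and 99.6 CPM, with a dE3 to WT ratio of 1.11 (1.06 to 1.15). In TPM the sum was 133, 160 and 107. With Sox21 added, the share of Sox21 in the counts of the 4 SoxB genes was 23.5%, 8.19% and 27.1%. Its share in their TPM was 15.5%, 4.73% and 18.3%.

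**Figure D2:**
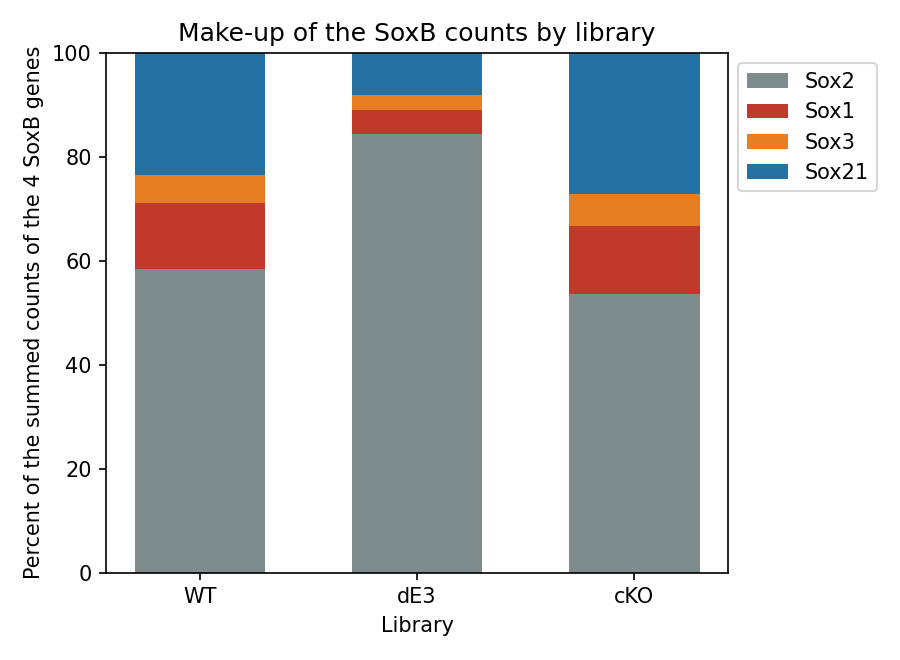
Percent of the summed estimated counts of Sox1, Sox2, Sox3 and Sox21 taken by each gene, 1 bar per library. Sox2 takes 58.5%, 84.4% and 53.7% in WT, dE3 and cKO.

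The filament and cytoplasmic genes showed no call in dE3. Nes (ENSMUSG00000004891, chromosome 3, 87971078 to 87980451, plus strand), which encodes nestin and whose regulatory sequence names the Cre line, had 7546, 8625 and 5825 counts, or 236, 246 and 176 CPM. Its dE3 to WT ratio was 1.04 (1.01 to 1.08), which turned to -0.21 on the log2 scale when the most different Nes transcript was left out, and cKO was the low library. Vim (ENSMUSG00000026728, chromosome 2, 13573927 to 13582826, plus strand), the vimentin gene, had 10341, 19550 and 10593 counts, or 324, 558 and 321 CPM. The dE3 library stood above the others, at 1.72 times WT (1.68 to 1.77), higher than 90.8% of measured genes but under the threshold. Without Vim's most different transcript, Vim-201, the log2 ratio turned to -0.36. Vim-201 held 79.3% of Vim counts in WT and 90.6% in dE3, so that value describes the small remainder. Vimentin is also a filament of mesenchyme, whose markers summed to more in dE3 and in cKO than in WT (above). The cKO to WT ratio of Vim was 0.991 (0.965 to 1.02), and the part of mesenchyme in these values was not tested. Msi1 (ENSMUSG00000054256, chromosome 5, 115429599 to 115455698, plus strand), the Musashi-1 gene, had 6081, 7020 and 5581 counts, or 190, 200 and 169 CPM, with a dE3 to WT ratio of 1.05 (1.02 to 1.09).

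The 3 membrane protein genes went different ways. Prom1 (ENSMUSG00000029086, chromosome 5, 43993620 to 44102032, minus strand), the gene of the apical protein prominin-1, had 1090, 1392 and 1107 counts, or 34.1, 39.7 and 33.5 CPM, and a dE3 to WT ratio of 1.16 (1.08 to 1.26). Ednrb (ENSMUSG00000022122, chromosome 14, 103814625 to 103844173, minus strand), the endothelin receptor type B of radial glia, neural crest and astrocytes, had 4439, 1542 and 4507 counts, or 139, 44.0 and 137 CPM. It was 3.16-fold lower in dE3 (2.98 to 3.35), the largest fold among the 10 genes. That interval lies within those of Sox21 (2.78 to 3.48) and Sox1 (2.54 to 3.43), so their order is not beyond counting error. Ptprz1 (ENSMUSG00000068748, chromosome 6, 22875502 to 23052916, plus strand), a receptor tyrosine phosphatase that carries chondroitin sulfate and binds pleiotrophin, had 6075, 2810 and 5726 counts, or 190, 80.2 and 173 CPM. It was 2.37-fold lower in dE3 (2.27 to 2.48). For Ednrb and Ptprz1 the dE3 library was again the only low one.

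Ednrb is also a neural crest gene. The 6 Schwann and neural crest markers summed to 79.7, 99.4 and 118 CPM, and 0 of 6 were called in dE3. Of 6 melanocyte markers, 2 were measured. These were Mitf, called lower in dE3 (70, 24 and 49 counts), and Pmel, called higher (2, 25 and 15 counts). The other 4 had few counts in WT, dE3 and cKO: Mlana 3, 0 and 0, Tyrp1 2, 0 and 0, Tyr 0, 4 and 2, and Dct 8, 10 and 0. Astrocyte lineage markers, of which 7 of 8 were measured, had 4 called lower and 1 higher in dE3. Lower were Slc6a11 (160, 20.1 and 178 CPM) and Aldh1l1 (61.0, 24.2 and 52.1). Hepacam (17.2, 3.57 and 11.7 CPM) and Aqp4 (4.13, 1.11 and 5.27) were also lower. The 1 higher was Gja1 (45.8, 92.0 and 84.2 CPM), and the median log2 ratio of the list in dE3 was -1.33. The astrocyte lineage markers summed to 582, 667 and 620 CPM. Slc1a2, a glutamate transporter gene that was not called, had the highest level in each library (292, 524 and 285 CPM). Ptprz1 is also a gene of oligodendrocyte precursors, whose 5 markers summed to 127, 114 and 175 CPM, with 2 called lower in dE3 and 0 higher. The 2 were Olig1 (1064, 2 and 1200 counts) and Olig2 (532, 0 and 452 counts), the lineage's defining transcription factors, the latter at 0 in dE3. The precursor markers Pdgfra (43.1, 67.5 and 64.1 CPM), Sox10 (18.8, 17.0 and 33.4) and Cspg4 (14.9, 29.2 and 26.9) were not called. Pdgfra is also among the mesenchyme and meninges markers, Sox10 among the Schwann and neural crest markers, and Cspg4 marks pericytes too. Their counts therefore need not come from precursors. The part of these lineages in the lower values of the 5 genes was not tested.

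In the cKO library, 0 of the 10 genes were called in either direction relative to WT, whereas 6.89% of measured genes were called (3.48% higher and 3.41% lower). With at least 100 counts the shares were 1.84% higher and 1.03% lower. The members' median log2 ratio was -0.09, against 0.00 over all measured genes. The farthest from 1 were Nes, at 0.747 (0.722 to 0.773), and Sox2, at 0.779 (0.738 to 0.822). Both intervals exclude 1, and 12.9% of measured genes had a lower ratio than Nes and 15.2% a lower ratio than Sox2. Sox21, Ednrb, Vim, Sox3 and Prom1 had ratios from 0.964 to 0.991, and all 5 intervals included 1. Without the most different transcript, Ednrb was called higher in cKO (log2 1.05), and the log2 ratio of Prom1 was 0.94. Those left out were Ednrb-202 and Prom1-207, with 87.1% and 53.7% of the WT counts of their genes. The Ednrb value is therefore that of Ednrb-201 alone, its only other transcript. Sox1 (0.878, 0.784 to 0.983), Msi1 (0.888, 0.856 to 0.921) and Ptprz1 (0.912, 0.880 to 0.946) lay between.

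Set against cKO rather than WT, the dE3 library had 5 of the 10 genes called lower and 0 higher, where 4.38% of measured genes were lower and 6.62% higher, 11.0% in all. With at least 100 counts, 2.56% were lower and 3.97% higher. They were again Sox1 (2.59-fold, 2.22 to 3.02), Sox3 (2.04-fold, 1.67 to 2.51), Sox21 (3.05-fold, 2.73 to 3.41), Ednrb (3.10-fold, 2.93 to 3.29) and Ptprz1 (2.16-fold, 2.07 to 2.26). The Ptprz1 call is lost by TPM and without its most different transcript, at a log2 ratio of -0.92 in both. Sox2 and Vim stood at 1.71 (1.62 to 1.79) and 1.74 (1.70 to 1.78) times cKO, and Nes at 1.40 (1.35 to 1.44). The 3 comparisons share libraries, so they are not independent of each other.

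**Figure D3:**
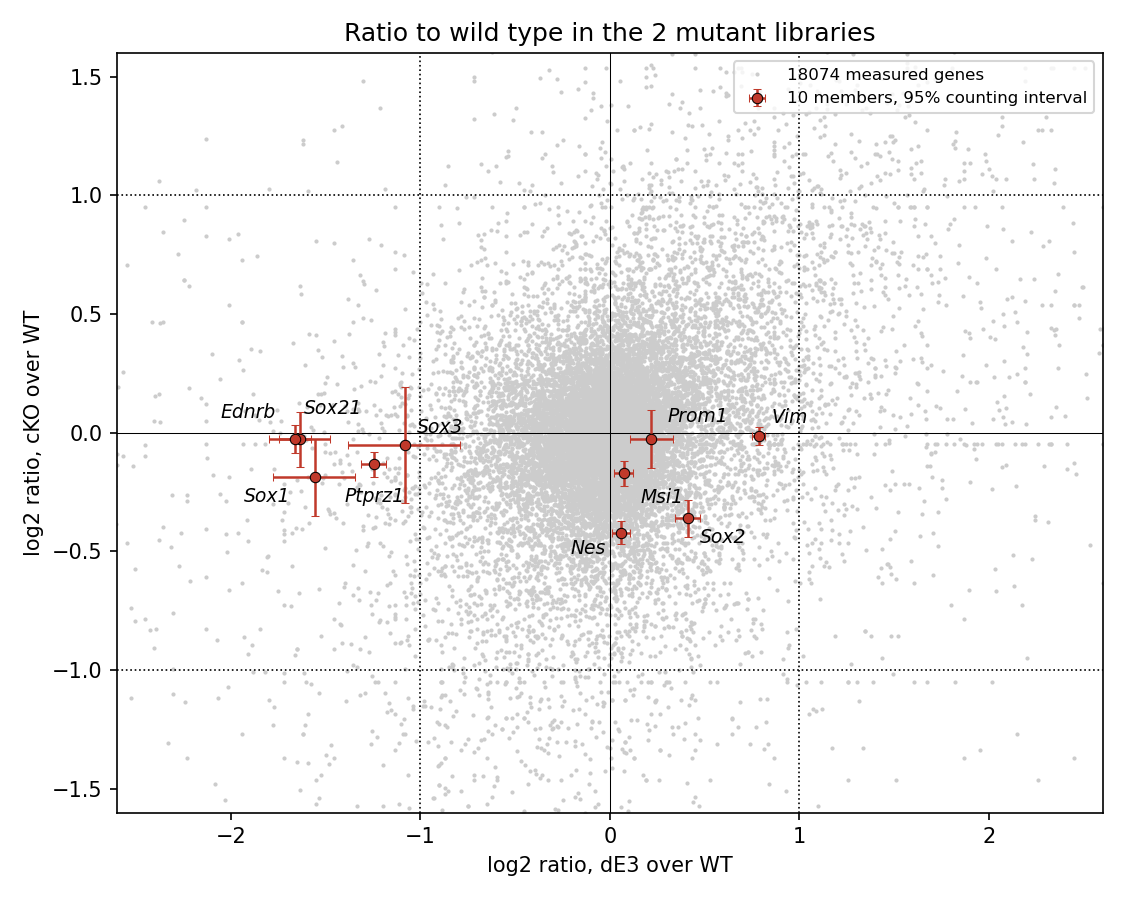
Log2 ratio of dE3 to WT (x axis) against log2 ratio of cKO to WT (y axis) for measured genes in grey and the 10 genes in red with 95% counting intervals. Both axes share the WT library, dotted lines mark 2-fold, and genes beyond the axes are not drawn. Sox1, Sox3, Sox21, Ednrb and Ptprz1 lie left of the 2-fold line, and all 10 genes lie within 2-fold on the y axis.

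Levels between genes can be compared only per length, as TPM. In WT the TPM order ran from Vim (395) through Msi1 (176), Sox2 (112), Nes (97.4), Ednrb (85.8), Ptprz1 (76.8), Prom1 (26.8) and Sox21 (24.3) to Sox3 (10.4) and Sox1 (10.3). Only Sox3 and Sox1 were neighbours not separated by counting error, with a ratio of 1.01 (0.878 to 1.17). Separation here leaves out error in assigning counts to transcripts, on which TPM also depends. In dE3 all neighbours were separated, Ednrb (27.6) stood below Ptprz1 (35.4) and Prom1 (31.0), and Sox3 (4.98) and Sox1 (3.54) remained last. In cKO, Sox2 (87.9) and Ednrb (85.1) were not separated (1.03, 0.983 to 1.09), nor were Sox3 (10.1) and Sox1 (9.05) (1.11, 0.961 to 1.29), and Nes had 72.3 TPM. Vim was first, Msi1 second and Sox1 last in every library.

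Transcript counts showed that the lower Ptprz1 total was uneven across its isoforms. Ptprz1-206 (12 exons, 1612 codons), which ends before the exons of the phosphatase part and has the arrangement of the secreted form phosphacan, had 2439, 1058 and 2610 counts in WT, dE3 and cKO. Ptprz1-201 (30 exons, 2312 codons), the long receptor, had 2079, 706 and 2045, a dE3 to WT ratio of 0.310 (0.284 to 0.337). Ptprz1-204 (30 exons, 1463 codons), the short receptor, had 1325, 904 and 952, a ratio of 0.622 (0.571 to 0.677). The short receptor thus took 21.8%, 32.2% and 16.6% of Ptprz1 counts. Counts of transcripts that share exons are estimates, and their error exceeds counting error by an amount not known here.

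Ednrb has 2 transcripts of 442 codons each, which differ at the 5′ end. Ednrb-202, which starts at 103843696, close to the start whose upstream sequence is printed above, had 3865, 1251 and 3277 counts. Ednrb-201, which starts at 103844173, had 574, 291 and 1230. Ednrb-201 was called higher in cKO, at 2.07 times WT (1.88 to 2.29), while the gene total was not. Its share of Ednrb counts was 12.9% in WT, 18.9% (16.9 to 20.9) in dE3 and 27.3% (26.0 to 28.6) in cKO.

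Vim, Nes and Prom1 also differed in transcript make-up. Vim-201 (466 codons) had 8199, 17716 and 9781 counts and a dE3 to WT ratio of 1.97 (1.92 to 2.02), while Vim-206 (427 codons) had 1867, 1366 and 606. Nes was divided between Nes-201, with 49.3%, 57.9% and 48.2% of its counts, and Nes-203, with 50.2%, 41.4% and 51.7%. The make-up of Prom1 differed from WT in both mutants, and more so in cKO. Prom1-207 took 53.7%, 40.5% and 9.30% of Prom1 counts in WT, dE3 and cKO, and Prom1-202 took 27.8%, 33.0% and 53.6%. Prom1-203 had 1, 118 and 201 counts (0.0917%, 8.48% and 18.2%), so WT was its low library. The 5 Prom1 transcripts that begin within 100 bases of the more downstream RefSeq start (44094768), a grouping chosen after the values were seen, took 55.6% (52.6 to 58.6), 46.7% (44.0 to 49.4) and 11.1% (9.32 to 13.1). On the opposite strand, Gm16401 shares 424 exonic bases with Prom1 (5.91%).

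**Figure D4:**
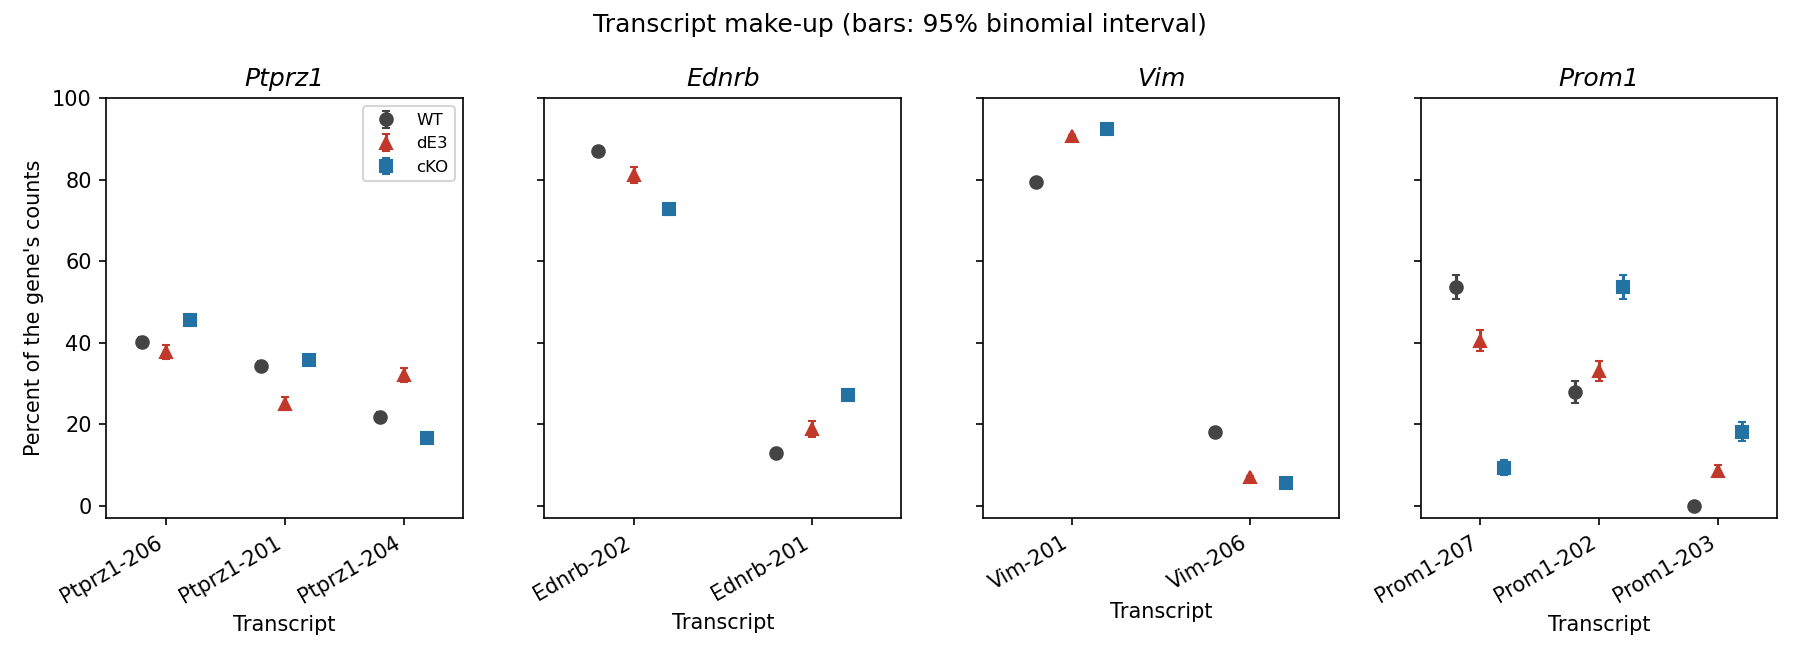
Percent of a gene's estimated counts assigned to its leading transcripts of Ptprz1, Ednrb, Vim and Prom1 in the 3 libraries, with exact 95% binomial intervals. Ptprz1-204 is highest in dE3 (32.2%), and Prom1-207 goes from 53.7% in WT to 9.30% in cKO.

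Other radial glia genes were mixed in dE3. Of 18 genes, all measured, 4 were called lower, 2 higher and 12 neither, with a median log2 ratio of -0.30 against 0.00 over all measured genes. The 4 lower were Hopx, a homeodomain-only cofactor of radial glia and astroglia (62.4 to 14.0 CPM, 4.46-fold, 4.04 to 4.94), Fabp7, the brain lipid-binding protein (446 to 146 CPM, 3.05-fold, 2.95 to 3.15), Dbi, an acyl-CoA-binding protein (102 to 37.3 CPM, 2.74-fold), and Aldoc, an aldolase of astroglia (109 to 42.7 CPM, 2.56-fold). The 2 higher were Hes5, a Notch effector (29.1 to 66.8 CPM, with an interval of 2.13 to 2.48), and Gli3, a Hedgehog pathway factor (20.8 to 48.7 CPM, 2.35-fold, 2.15 to 2.57). Hes5 loses its call without its most different transcript, at a log2 ratio of 0.81. In cKO, 0 of the 18 were called, with a median of -0.09. Cdh2 (396, 357 and 387 CPM), the glutamate transporter gene Slc1a3 (288, 199 and 231) and Notch1 (167, 242 and 171) were called in neither mutant.

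Of 14 measured other Sox genes, 1 was called lower in dE3 and 0 higher. It was the SoxE gene Sox8, at 20.1, 3.51 and 18.2 CPM (5.72-fold lower in dE3, 4.71 to 6.99). The SoxC genes Sox11 (968, 1116 and 842 CPM), Sox4 (899, 796 and 793) and Sox12 (309, 266 and 301), which act in newborn neurons, and the other SoxB2 gene Sox14 (10.9, 9.33 and 12.7) were not called. Of the 6 SoxB1 partners, POU factors and Chd7, 0 were called in dE3 or cKO, and the median log2 ratios were 0.38 and -0.18. Pou3f4 came closest, at 42.3, 79.4 and 41.5 CPM, a dE3 ratio of 1.88.

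Among 9 ligands and binding partners of Ptprz1, 1 was called higher in dE3 and 0 lower. It was Ptn, the ligand pleiotrophin, with 518, 1623 and 409 CPM, 3.13-fold higher in dE3 (3.08 to 3.19), while its receptor gene Ptprz1 was lower. The related ligand gene Mdk (midkine) had 47.6, 92.6 and 59.7 CPM and a ratio of 1.95 (1.83 to 2.07). Ncam1 (586, 506 and 579 CPM) and Nrcam (240, 235 and 221) were not called. Of 5 measured genes of the endothelin system, 0 were called in dE3. In cKO, the ligand gene Edn3 was called higher at 2.11 times WT (76, 163 and 166 counts), a call that is lost by TPM, at a log2 ratio of 0.96, and reverses to -0.43 without its most different transcript. Edn2 had under 20 counts in every library. Ece1, the endothelin-converting enzyme, had 50.8, 46.7 and 63.1 CPM, and Ednra, the other receptor, 15.8, 21.9 and 22.6.

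Of 10 measured other intermediate filament genes, only Des, a muscle filament, was called in dE3 (0.970, 8.07 and 2.12 CPM), alongside the muscle markers above. It and Synm, synemin (20.8, 24.1 and 42.0 CPM), were called higher in cKO, Synm losing its call by TPM (0.90). The neuronal filament gene Nefm had 1116, 730 and 1684 CPM. None of 3 Musashi relatives and targets (Msi2, 187, 188 and 168 CPM; Numb; Numbl) and none of 7 measured polarity and prominin genes were called in dE3 or cKO. Of 10 cycling genes, 2 (Birc5 and Mcm3) were called higher in dE3, with a median log2 ratio of 0.75, and 0 in cKO, with a median of 0.13. Mki67, the proliferation marker, had 70.7, 127 and 73.9 CPM.

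**Figure D5:**
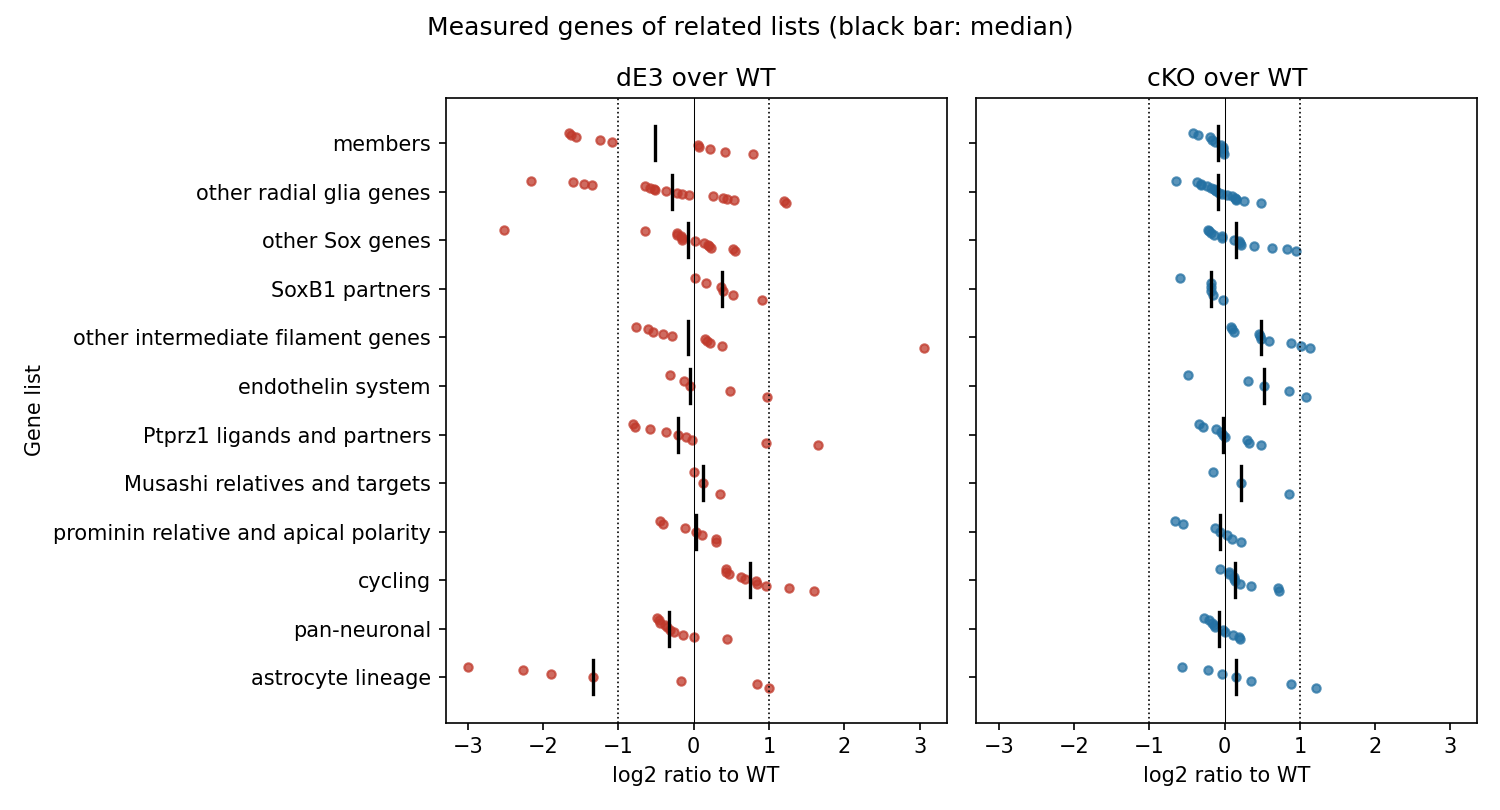
Log2 ratio to WT of the measured genes of related lists in dE3 (left) and cKO (right), 1 point per gene, with a black bar at each list's median and dotted lines at 2-fold. The 10 genes have a median of -0.51 in dE3 and -0.09 in cKO.

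For each gene lower in dE3, the 3 genes closest to it in its log2 ratios to WT in dE3 and cKO were taken from 12520 other genes. These had at least 100 counts in at least 1 library, leaving out predicted, unnamed, mitochondrial, ribosomal protein and pseudogene symbols. They are likenesses over 3 libraries and no more. Sox21 and Ednrb were each other's closest, at a distance of 0.0242, with Igsf11 second for both and then Serpine2 for Sox21 and Plcd4 for Ednrb. Sox1 was closest to Nnt, Slco1c1 and Dbi, Sox3 to Mob1a, Adcy8 and Slc24a5, and Ptprz1 to Rgs20, Rnd1 and Zdhhc24. Without the transcript that differed most, the dE3 to WT ratio changed sign for Igsf11, Mob1a, Plcd4, Rnd1 and Slco1c1. Their likeness thus holds for the gene totals and not for the remaining transcripts. That transcript was picked by its difference between these same libraries, so part of the change is built in.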

How the data were processed

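RNA of 1 spinal cord library per genotype was sequenced, from kits and reagents named in the labels' protocols (1 µg of total RNA). CASAVA, Bowtie2 2.3.2 and the build GRCm38.p6 are listed in the submitters' processing notes, without roles. Neither the quantifier nor the annotation release nor the strand setting is given in the sources used here. The authors deposited estimated counts, whole numbers in the files, with TPM and FPKM values for 51826 genes and 128622 transcripts, named per the file headers. The count of every gene equalled the sum of its transcripts' counts. The deposited TPM values were used for levels between genes and as an alternative. The deposited FPKM values were not used for results. Positions equal GENCODE vM21 for 9 of 10 members.

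Counts were scaled by TMM (edgeR 4.0.16, R 4.3.3; factors 0.993, 1.01 and 0.999) computed on genes with at least 20 counts in 1 library. Ratios carry an exact conditional binomial (Clopper-Pearson) 95% interval, and calls need a ratio of 2 either way and an interval that excludes 1. A count of 0 was set to a floor of 3 counts. Without molecular identifiers, reads are no independent molecules, and intervals cover counting error only. Members and lists were chosen with earlier results of these data known. Named were all 10 members, the called genes of each list or else up to 4 with the highest WT level, and the 3 genes most like each lower member. Further genes were named as context after their values were seen. Alternatives were DESeq2 1.42.0 size factors, library totals, upper-quartile scaling, TPM, no minimum, a minimum of 100 counts, a 1.5-fold threshold, and leaving out each gene's most different transcript. The transcript left out was the one whose scaled counts differed most between the 2 libraries compared. That choice can shift the ratio by design and can remove most of a gene's counts. The motif CTTTGTA was added after the data were seen.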

Additional observations from a re-analysis of the deposited data

How the results depend on the processing

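Of the 5 members lower in dE3 than in WT, the same 5 were called by DESeq2 size factors, library totals, upper-quartile scaling, TPM, no minimum and a minimum of 100 counts, and Ednrb and Ptprz1 also without their most different transcript. Vim was added at the 1.5-fold threshold. Of dE3 against cKO, Ptprz1 lost its call by TPM (log2 -0.92) and without its most different transcript (-0.92), where Vim was called (1.09), and Sox2 and Vim were added at 1.5-fold. In cKO against WT, 0 members were called except Ednrb without its most different transcript (1 member, log2 1.05). That setting also turned the uncalled Vim ratio in dE3 against WT to -0.36, Nes to -0.21 and Prom1 in cKO against WT to 0.94. The transcripts left out were Ednrb-202, Vim-201, Nes-201 and Prom1-207. They held 87.1%, 79.3%, 49.3% and 53.7% of the WT counts of their genes, so these values describe the remaining transcripts. The cause was not tested beyond the counts of transcripts given.

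Over all genes, dE3 against WT called 1861 genes, 882 with a minimum of 100 counts and 3499 at 1.5-fold. In cKO against WT, 1246 became 2048 with no minimum, 401 with a minimum of 100, 2508 at 1.5-fold and 2340 without the most different transcript. In dE3 against cKO, 1988 became 912 and 3981 at the minimum of 100 and at 1.5-fold. Without the most different transcript, log2 ratios reversed in dE3 against WT for Igsf11 (0.867), Mob1a (4.771), Plcd4 (0.138), Rnd1 (2.326) and Slco1c1 (1.369). They reversed in cKO against WT for Edn3 (-0.426) and Notum (-0.168), and in dE3 against cKO for Mob1a (3.736), Nnt (0.358), Plcd4 (0.066), Rnd1 (1.789) and Slco1c1 (1.417). No paired analysis was possible because each genotype has 1 library, which also leaves no replicate to leave out. Depth limits Sox3 most, since it had the fewest counts of the 10 genes in WT, dE3 and cKO.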
